A study of Mus musculus with 8 samples.

Results

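The 30 genes described here encode enzymes of the tricarboxylic acid (TCA) cycle, the enzymes that bring pyruvate, glutamate and other amino acid carbon into it, and the inner membrane carriers that move its intermediates. They were chosen by gene symbol, with earlier results of these data known. All 30 were found among the 39527 genes of the table with no value below 0. RNA was measured in group 2 innate lymphoid cells (ILC2s) sorted from the epididymal visceral fat of wild-type male C57BL/6 mice that were 14 weeks old. The 4 normal-diet libraries are called N1 to N4 and the 4 high-fat-diet libraries H1 to H4, and the diets were given for 8 weeks from 6 weeks of age. By its title, the series belongs to work on mitochondria and on LKB1, an upstream kinase of the energy sensor AMPK. Neither the sort gate nor the number of mice behind a library is given in the labels, and p-values then measure a spread among libraries that could be technical only.

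ILC2s are tissue lymphocytes that secrete type 2 cytokines and help to keep visceral fat free of inflammation. The TCA cycle runs in the mitochondrial matrix: citrate synthase joins acetyl-CoA to oxaloacetate, and isocitrate dehydrogenase, the 2-oxoglutarate dehydrogenase complex, succinyl-CoA ligase, succinate dehydrogenase, fumarase and malate dehydrogenase then return the carbon to oxaloacetate while passing electrons to the respiratory chain. Carbon withdrawn for synthesis is replaced through pyruvate carboxylase and through glutamate, and cytosolic copies of several enzymes work with carriers such as the malate-aspartate shuttle to move reducing power across the inner membrane.

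Each library held 9005363 to 15752815 reads, recovered from the steps of the values, with the fewest in H2. H2 also had the most genes at 1 FPKM or more, 13663 against 10763 to 11905 in the other libraries. FPKM counts fragments by gene length and by library size. Levels can thus be compared between genes only as far as the gene lengths used are right, and up to a scale factor in the deposited values. That factor, between 0.863 and 1.18, repeats over the rows of the table and can differ between genes. All 14 ILC2 markers were detected, with Gata3, which encodes their lineage factor, at 566 to 1145 FPKM. Their sum was 7345 to 8341 FPKM across H libraries and 9045 to 10982 FPKM across N libraries, without overlap, with Gata3, Il2ra and Il5 called lower. The sum rests on a few abundant genes, and without Id2 it was 5154 to 6016 and 6868 to 8163 FPKM, still without overlap. Rora, not called, was also lower without overlap, at 1544 to 1753 FPKM across H libraries and 1955 to 2573 FPKM across N libraries. Il7r went the other way, at 203 to 272 FPKM across H libraries and 150 to 199 FPKM across N libraries, above and without overlap. The part of these shifts in the differences given here was not tested. Summed mast cell markers were high in every library, at 1700 (H2) to 7788 FPKM across H libraries and 3715 to 7925 FPKM across N libraries. The 10 endothelial markers summed to 30.8 to 144 FPKM across H libraries and 16.7 to 22.9 FPKM across N libraries, and 2 of the 4 tested, Esam and Fabp4, were called higher. Without Fabp4, which reached 104 FPKM in H1, the sums were 21.2 to 47.0 and 15.2 to 21.1 FPKM. T cell markers summed to 814 to 1594 and 768 to 1028 FPKM, and without Trbc1 to 408 to 881 and 424 to 584 FPKM. Trbc1, Trbc2, Trac and Cd3g were at 70.4 FPKM or more in every library. The other T cell markers, Cd3d, Cd3e, Cd4, Cd5, Cd8a and Cd8b1, were at 18.5 FPKM or less. The 9 macrophage markers summed only to 4.33 to 10.2 FPKM over all libraries. In sorted bulk RNA, fewer cells of a type and less RNA per cell cannot be told apart.

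No tested gene of the cycle, of carbon entry or of the carriers passed the test of diet. Of the 30 genes, 28 reached 1 FPKM in 4 or more of the 8 libraries and entered the test. None of these 28 had an adjusted p under 0.05 (limma on log2(FPKM + 1), Benjamini-Hochberg adjustment over 11483 genes), where 2.86% of all tested genes did (1.88% lower and 0.975% higher in H libraries). At an unadjusted p under 0.05 there were 4 of 28 (Ogdh, Pcx, Glud1 and Slc25a12), beside 18.1% of all tested genes. The log2 difference, high-fat minus normal diet, was below 0 for 19 of 28 genes, with a median of -0.07, and over all tested genes it was below 0 for 52.1% with a median of -0.02. Without H2 the median was 0.02 with 11 of 28 genes below 0, and it stayed below 0 when any other single library was left out. Under quantile normalization it was 0.05 with 13 below 0. The 95% interval of the difference lay within a 2-fold change of FPKM + 1 in either direction for 26 of 28 genes. Pcx and Glud1 were the exceptions, and the share over all tested genes was 86.6%. For genes near 1 FPKM, such as Gpt2, a 2-fold change of FPKM + 1 is a larger change of FPKM itself. The test with limma voom on recovered reads also called 0 of the members. With library sizes set to total reads, chosen after seeing the data, it called Dlst and Slc25a12 higher (adjusted p = 0.0101 and 0.0402), 2 of 30 members beside 7.36% of all genes called higher in that setting. The same scaling moved the median difference of all genes tested in the main fit from -0.02 to 0.14.

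**Figure D1:**
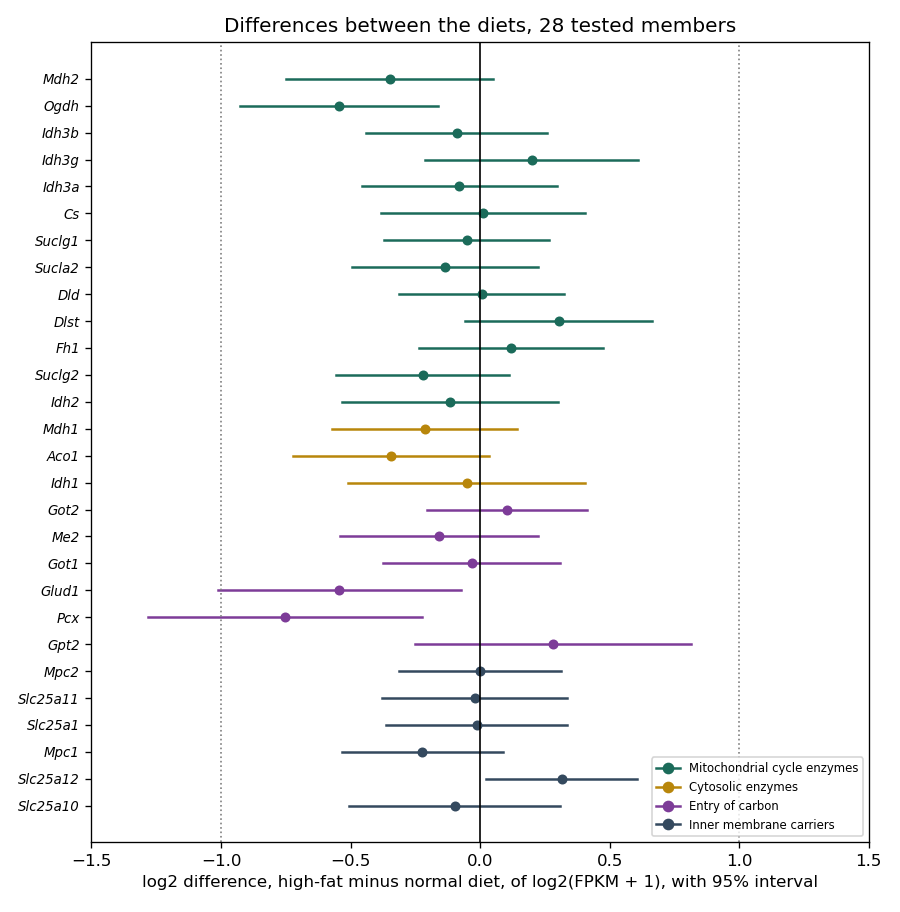
Points give the log2 difference (high-fat minus normal diet, on log2(FPKM + 1)) of each of the 28 tested genes, and bars the 95% interval of limma with 4 libraries per diet. Dotted lines mark a 2-fold change of FPKM + 1, and the intervals of Ogdh, Pcx, Glud1 and Slc25a12 lie off 0.

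Levels differed far more between genes than between diets. The mean over 8 libraries ran from 265.9 FPKM for Mdh2, above 96.9% of all tested genes, to 0.517 FPKM for Me1. Mdh2 exceeded Mdh1 in 8 of 8 libraries, and Mdh1 (207 FPKM) exceeded Ogdh (108 FPKM) in 8 of 8. Idh3b and Idh3g, at 91.2 and 85.2 FPKM, were not ordered beyond their spread as deposited, since Idh3b was the higher in 5 of 8 libraries. With the repeating factor divided out, Idh3g was the higher only in H1 (123 against 104 FPKM). Got2, Idh3a, Cs, Suclg1 and Slc25a11 lay between 53.7 and 58.3 FPKM, and each exceeded the next of them in 3 to 5 of 8 libraries. Slc25a1, Mpc1, Slc25a12, Suclg2, Slc25a10 and Glud1, at 16.8 to 19.8 FPKM, likewise formed a run without a stable order. Aco1 (8.62 FPKM), Idh1 (3.68), Pcx (2.06), Gpt2 (1.56), Slc25a13 (1.04) and Me1 were the lowest, below Idh2 (14.9 FPKM).

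**Figure D2:**
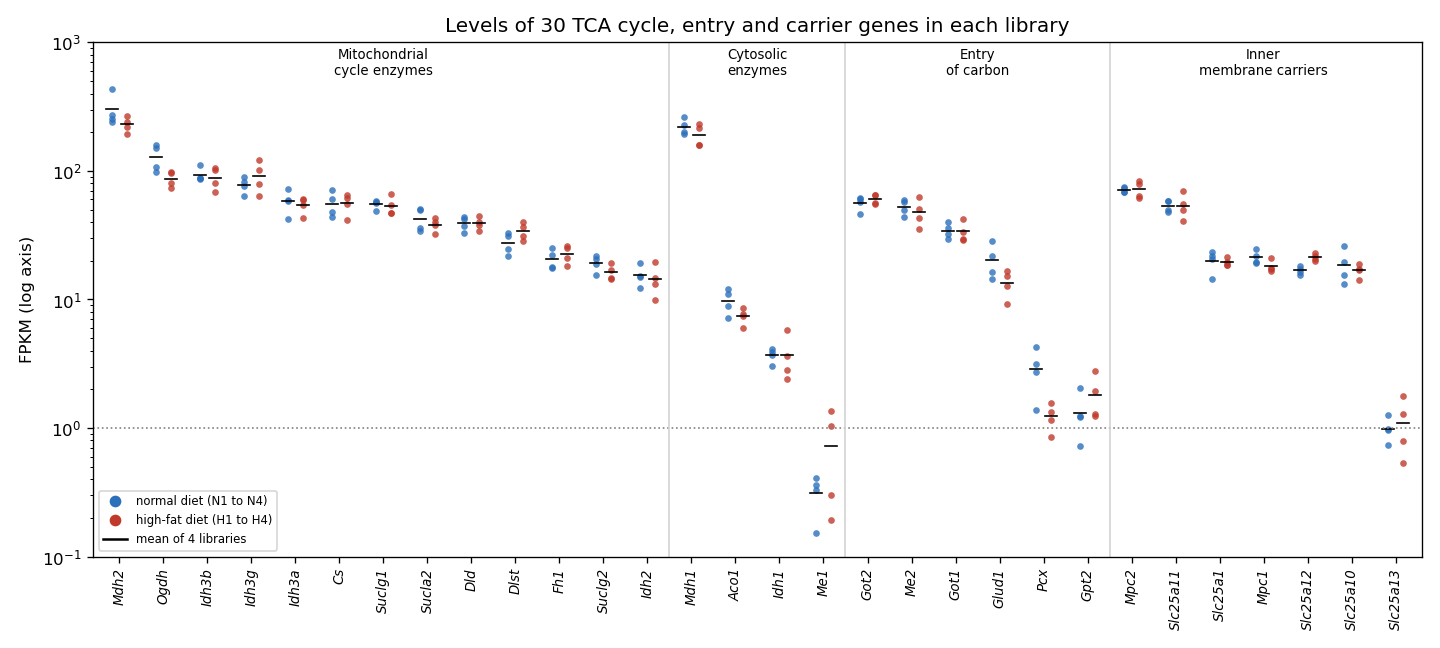
Each point is 1 library, with the FPKM on a log axis, the 30 genes grouped by role, the normal diet in blue, the high-fat diet in red and a bar at the mean of 4. The levels span from Mdh2 at 265.9 FPKM to Me1 at 0.517 FPKM, and the diets overlap in all but Slc25a12; the dotted line marks 1 FPKM.

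Among the 13 mitochondrial cycle enzymes, 0 passed the test and 8 had a difference below 0 (median -0.08). Ogdh (ENSMUSG00000020456, chromosome 11, 6291633 to 6356642, plus strand, mm10) encodes the E1 subunit of the 2-oxoglutarate dehydrogenase complex, which makes succinyl-CoA. It stood at 98.1, 159.6, 108 and 152 FPKM in N1 to N4 and at 74.0, 80.4, 95.6 and 98.2 FPKM in H1 to H4. Only H4 reached the lowest normal-diet library, which it barely exceeded, and N2 and N4 stood above the rest. The means were 129 ± 30.8 and 87.1 ± 11.7 FPKM (SD, n = 4 each), with a log2 difference of -0.55, a standard error of 0.18 and an adjusted p of 0.117 by limma. With the repeating scale factor divided out, Ogdh was at 105 to 167 FPKM across N libraries and 80.2 to 98.3 FPKM across H libraries. The diets then did not overlap, as for 14.0% of all tested genes and 2 of 28 members in that setting, with a difference of -0.49 (limma adjusted p = 0.0774).

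Dlst and Dld encode the other subunits of that complex, E2 and E3, and Dld also serves pyruvate dehydrogenase. Dlst stood at 31.2, 32.6, 24.5 and 21.8 FPKM in N1 to N4 and at 39.7, 28.5, 31.0 and 36.9 FPKM in H1 to H4. H1 and H4 were above every normal-diet library and H2 and H3 within their range (difference 0.30, 95% interval -0.06 to 0.66, limma adjusted p = 0.368). With the repeating factor divided out, H3 at 33.1 FPKM also lay above N1 at 31.9 FPKM, the highest of the normal diet. Dld was at 33.0 to 43.7 FPKM across N libraries and 34.1 to 44.8 FPKM across H libraries, with a difference of 0.01. The subunits of the complex were thus measured with differences of either sign, none of which passed.

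Mdh2, mitochondrial malate dehydrogenase, was the most expressed gene of the set. It was at 242, 433, 273 and 255 FPKM in N1 to N4 and at 269.8, 193, 221 and 240.0 FPKM in H1 to H4. N2 stood far above the others, and H1 lay above N1 and N4. The difference was -0.35 (standard error 0.19, limma adjusted p = 0.346) and -0.16 without N2. Cs, citrate synthase, the entry enzyme of the cycle, was at 55.7 ± 12.3 FPKM across N libraries and 55.9 ± 10.5 FPKM across H libraries (difference 0.01, 95% interval -0.38 to 0.41). The NAD-dependent isocitrate dehydrogenase has a catalytic subunit, Idh3a, at 58.3 ± 12.4 and 54.5 ± 8.01 FPKM in N and H libraries, and the subunits Idh3b at 93.7 ± 11.6 and 88.7 ± 16.9 FPKM and Idh3g at 78.3 ± 11.2 and 92.0 ± 25.6 FPKM (SD, n = 4 each). Their differences were -0.08, -0.09 and 0.20. Idh2, the NADP-dependent mitochondrial enzyme, was at 15.4 ± 2.93 and 14.3 ± 3.99 FPKM.

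Succinyl-CoA ligase pairs the shared alpha subunit Suclg1 with either Sucla2, which forms ATP, or Suclg2, which forms GTP. Suclg1 was at 49.0 to 58.3 FPKM across N libraries and 47.2 to 65.9 FPKM across H libraries. Sucla2 was at 34.1 to 51.0 and 32.1 to 42.9 FPKM, and Suclg2 at 15.5 to 21.9 and 14.3 to 19.1 FPKM, with differences of -0.05, -0.14 and -0.22 for the 3 genes. With the repeating factor divided out, Suclg2 was at 18.0, 20.3, 18.7 and 20.1 FPKM in N1 to N4 and 15.8, 14.7, 16.1 and 16.7 FPKM in H1 to H4. The diets then did not overlap for Suclg2, the other of the 2 members in that setting beside 14.0% of all tested genes, whereas the values as deposited did. Dlst and Suclg2 are given by library because of their values under other settings. Fh1, fumarase, was at 20.8 ± 3.61 and 22.6 ± 3.68 FPKM (difference 0.12).

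The cytosolic enzymes were Mdh1, Aco1, Idh1 and Me1. Mdh1, the cytosolic malate dehydrogenase of the malate-aspartate shuttle, was at 202, 262.0, 193 and 227 FPKM in N1 to N4 and at 217, 160.0, 159 and 232 FPKM in H1 to H4. H2 and H3 lay below every normal-diet library, while H1 and H4 lay within their range (difference -0.21, standard error 0.17, limma adjusted p = 0.545). Aco1, which is a cytosolic aconitase or, without its iron-sulfur cluster, the iron regulatory protein IRP1, was at 8.91, 11.0, 7.22 and 12.1 FPKM in N1 to N4 and 6.01, 7.47, 7.64 and 8.64 FPKM in H1 to H4. The ranges overlapped through N3 (difference -0.34, limma adjusted p = 0.325). Idh1, an NADPH source in the cytosol and peroxisome, was at 3.68 ± 0.45 and 3.67 ± 1.52 FPKM. Me1, the cytosolic malic enzyme, lay under the filter with 3 to 29 reads per library. It was at 0.153 to 0.409 FPKM across N libraries, at 1.35 and 1.04 FPKM in H2 and H3, and at 0.192 and 0.303 FPKM in H1 and H4.

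Of the 6 genes of carbon entry, 0 passed. Pcx (ENSMUSG00000024892, chromosome 19, 4510472 to 4621752, plus strand) encodes pyruvate carboxylase, which makes oxaloacetate from pyruvate. It was low in all libraries, at 1.38, 3.14, 2.72 and 4.29 FPKM in N1 to N4 and 0.850, 1.15, 1.57 and 1.34 FPKM in H1 to H4, on 43 to 184 reads. Of the high-fat libraries only H3 exceeded N1, the lowest of the normal diet. Mean levels were 2.88 and 1.23 FPKM in N and H libraries, and the 1 added before the log shrinks the difference of a gene this low. The difference of -0.75 on log2(FPKM + 1) was still the largest in size among the 28 genes (95% interval -1.28 to -0.22, limma adjusted p = 0.117). It ran from -1.11 to -0.59 over 17 other settings, with adjusted p from 0.0533 to 0.267. Pcx is abundant in adipocytes. The 7 adipocyte markers with values summed to 3.31 to 5.92 FPKM across N libraries and to 4.57 to 8.30 FPKM across H libraries. Adipoq was at 0 in 5 of 8 libraries and at most 0.563 FPKM. Lipe (2.04 to 3.79 FPKM), Cidec (0.505 to 3.39 FPKM) and Lep (0.0516 to 0.913 FPKM) were above 0 in every library. The part of adipocyte RNA in the Pcx level was not tested.

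Glud1, glutamate dehydrogenase, which feeds glutamate into the cycle as 2-oxoglutarate, was at 21.7, 16.3, 28.5 and 14.5 FPKM in N1 to N4 and at 15.3, 16.7, 12.6 and 9.15 FPKM in H1 to H4. The diets overlapped, with N1 and N3 above all other libraries and H4 below them (difference -0.54, standard error 0.22, limma adjusted p = 0.200). The aminotransferases Got2 and Got1 act in the mitochondrial and cytosolic arms of the malate-aspartate shuttle. Got2 was at 57.0, 60.0, 46.6 and 61.5 FPKM in N1 to N4 and 65.3, 56.1, 65.0 and 55.1 FPKM in H1 to H4 (difference 0.10). Got1 was at 34.4 ± 4.47 and 33.8 ± 6.14 FPKM in N and H libraries. Gpt2, mitochondrial alanine aminotransferase, was at 0.729 to 2.06 and 1.25 to 2.80 FPKM (difference 0.28, limma adjusted p = 0.603). Me2, the mitochondrial malic enzyme, was at 52.7 ± 7.09 and 47.8 ± 11.7 FPKM.

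The carriers held the only gene whose diets did not overlap in the values as deposited, beside 11.1% of all tested genes (6.76% lower and 4.31% higher in H libraries). Slc25a12 (ENSMUSG00000027010, chromosome 2, 71271063 to 71367749, minus strand) encodes aralar, the aspartate/glutamate carrier of the malate-aspartate shuttle. It stood at 15.4, 18.3, 16.4 and 17.4 FPKM in N1 to N4 and at 19.8, 23.0, 20.6 and 21.7 FPKM in H1 to H4, so all high-fat libraries were above all normal-diet libraries. The means were 16.9 ± 1.26 and 21.3 ± 1.42 FPKM (SD, n = 4 each), with a difference of 0.32, a 95% interval of 0.02 to 0.61 and an adjusted p of 0.234 by limma. With the repeating factor divided out, N2 at 19.6 FPKM passed H1 at 19.5 FPKM, and the difference was 0.23 (limma adjusted p = 0.281). Slc25a13, citrin, the other aspartate/glutamate carrier, lay under the filter at 0.533 to 1.79 FPKM on 22 to 52 reads, highest in H2.

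Mpc1 and Mpc2 together form the mitochondrial pyruvate carrier. Mpc2 was at 73.5, 74.6, 69.1 and 68.0 FPKM in N1 to N4 and at 83.5, 61.1, 63.6 and 79.5 FPKM in H1 to H4. H1 and H4 lay above all normal-diet libraries and H2 and H3 below them, and the difference was 0.00 (95% interval -0.31 to 0.31). With the repeating factor divided out, Mpc2 was at 85.3, 60.2, 73.7 and 73.7 FPKM in H1 to H4. The N libraries were then at 69.1 to 73.3 FPKM, so only H2 lay below them. Mpc1 was at 19.1 to 24.8 and 16.6 to 20.9 FPKM (difference -0.22, limma adjusted p = 0.456). Of its annotated exonic bases, 23.1% overlap an opposite-strand transcript, and the library kit does not mark strand, so its reads are uncertain. Smaller overlaps of this kind exist for Got2 (9.00%), Slc25a11 (8.92%) and Slc25a10 (6.60%), and for Mdh1, Me1 and Idh3b (2.03% or less). Pseudogenes named after Got2 and Mpc1 are annotated as well. Slc25a11, the 2-oxoglutarate/malate carrier of the shuttle, was at 53.7 ± 5.67 and 53.6 ± 11.9 FPKM. Slc25a1, the citrate exporter that supplies acetyl-CoA for lipid synthesis, was at 14.3 to 23.6 FPKM across N libraries and 18.5 to 21.5 FPKM across H libraries, and Slc25a10, the dicarboxylate carrier, at 13.1 to 25.9 and 14.1 to 19.0 FPKM.

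The 4 genes with an unadjusted p under 0.05 are shown with the 250 bases before their annotated start (RefSeq, GRCm38.p6, the start nearest to that of GENCODE), to show the sequence upstream of the members nearest to the threshold. Capitals mark matches on either strand to GCGCATGC (the core of the NRF1 motif), AAGGTCA (the ERR element), CACGTG (E-box), CCAAT, TGACGTCA (CRE) and GGGCGG (GC box), and no match overlaps one of another motif.
Ogdh, chr11:6291409-6291658, plus strand: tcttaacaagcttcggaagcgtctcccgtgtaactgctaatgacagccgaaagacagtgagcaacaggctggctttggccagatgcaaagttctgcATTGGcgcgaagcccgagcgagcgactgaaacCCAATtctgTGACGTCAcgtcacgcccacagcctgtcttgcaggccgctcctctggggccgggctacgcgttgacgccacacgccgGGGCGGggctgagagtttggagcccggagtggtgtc
Pcx, chr19:4510222-4510471, plus strand: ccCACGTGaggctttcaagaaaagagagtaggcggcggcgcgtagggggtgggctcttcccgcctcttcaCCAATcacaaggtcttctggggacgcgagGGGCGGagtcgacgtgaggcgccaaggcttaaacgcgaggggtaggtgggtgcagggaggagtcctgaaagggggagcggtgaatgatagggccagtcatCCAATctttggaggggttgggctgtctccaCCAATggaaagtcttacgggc
Glud1, chr14:34310477-34310726, plus strand: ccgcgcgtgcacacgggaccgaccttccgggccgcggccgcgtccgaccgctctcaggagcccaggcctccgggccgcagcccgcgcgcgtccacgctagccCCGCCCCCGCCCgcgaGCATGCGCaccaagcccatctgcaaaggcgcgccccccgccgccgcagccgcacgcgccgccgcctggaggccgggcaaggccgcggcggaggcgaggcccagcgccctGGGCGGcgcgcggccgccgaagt
Slc25a12, chr2:71367756-71368005, minus strand: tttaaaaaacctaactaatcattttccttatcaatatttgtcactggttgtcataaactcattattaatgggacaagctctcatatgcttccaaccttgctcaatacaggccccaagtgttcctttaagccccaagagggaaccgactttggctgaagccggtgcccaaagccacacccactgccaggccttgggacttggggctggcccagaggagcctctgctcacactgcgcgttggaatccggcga

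The Ogdh window held a CRE, a GC box and CCAAT in both orientations, and the Pcx window an E-box, a GC box and CCAAT at 3 places. The Glud1 window, with a GC content of 82.0%, held the NRF1 core and 3 GC boxes, and the Slc25a12 window held none of these letters. RefSeq promoters were matched for 28 of the 30 genes, 19 of them within 100 bases of the GENCODE start. Ogdh had 6 listed promoters and Pcx 2, of which only the nearest is shown. For tested genes the first listed promoter was counted, whereas for members the nearest was. CCAAT was found in 16 of these 28 (57.1%) and in 33.8% of all 32851 promoter windows of that length, or 36.6% of those of tested genes. The GC box was in 19 of 28 (67.9%), against 32.7% of all windows and 59.9% of those of tested genes. The E-box was in 3 of 28, CRE in 2 of 28, and the NRF1 core and the ERR element in 1 of 28 each, where 6.02%, 1.55%, 2.26% and 4.08% of all windows and 8.68%, 2.99%, 4.81% and 2.70% of those of tested genes held them. A match describes these letters only, and no binding was measured.

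Ratios of related genes within a library do not depend on a scale shared by all genes of that library, but the repeating factor can differ between the paired genes. They also rest on the gene lengths used for FPKM. The mitochondrial form was the more abundant in every library for 3 enzyme pairs that also have a cytosolic form. Idh2 stood over Idh1 at a geometric mean ratio of 4.16 across N libraries (3.31 to 4.97) and 4.02 across H libraries (2.28 to 5.37). Mdh2 over Mdh1 was 1.33 (1.12 to 1.65) and 1.21 (1.03 to 1.40), and Got2 over Got1 was 1.64 (1.55 to 1.75) and 1.80 (1.30 to 2.18). The GTP-forming Suclg2 stood below the ATP-forming Sucla2 at 0.454 (0.417 to 0.550) and 0.426 (0.390 to 0.477). Slc25a13 stood below Slc25a12 at 0.0575 (0.0425 to 0.0767) and 0.0469 (0.0246 to 0.0777). The aralar transcript was thus the more abundant of the 2 in all 8 libraries, and the proteins were not measured. Mpc2 over Mpc1 was 3.36 (2.79 to 3.81) and 3.96 (3.62 to 4.58). Much of this last ratio comes from length. Mpc2 had 395 to 761 reads per library and Mpc1 308 to 524, at recovered lengths of 712 and 1921 bases. The ranges of the diets overlapped for each of these 6 ratios, as deposited and with the repeating factor divided out. That setting moved single libraries, for example Mdh2 over Mdh1 in H4 from 0.05 to 0.22 and Got2 over Got1 in H4 from 0.37 to 0.70 on the log2 scale. Its geometric means were 4.21 and 3.85 (N and H) for Idh2 over Idh1, 1.31 and 1.22 for Mdh2 over Mdh1, 1.58 and 1.77 for Got2 over Got1, and 3.35 and 4.14 for Mpc2 over Mpc1. They were 0.464 and 0.403 for Suclg2 over Sucla2 and 0.0563 and 0.0471 for Slc25a13 over Slc25a12, so each ratio kept its side of 1. Me2 exceeded Me1 in 8 of 8 libraries, but Me1 had 3 reads in N2, so this ratio is only plotted and its size is not given here.

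**Figure D3:**
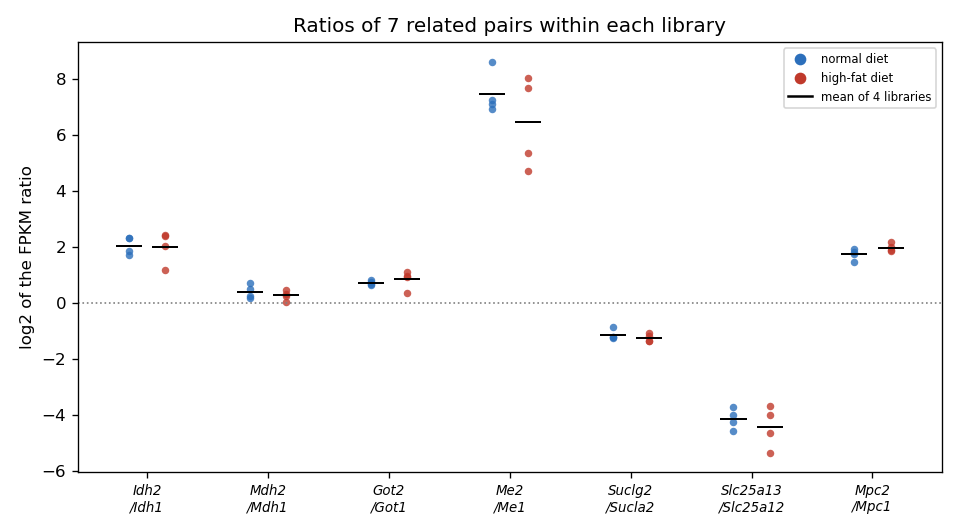
Points give the log2 of the FPKM ratio of 7 related pairs in each library, in blue for the normal diet and red for the high-fat diet, with bars at the mean of 4. The diets overlap in every pair, and the spread of Me2/Me1 rests on 3 to 29 reads of Me1 per library.

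Libraries of the same diet differed in a way that many members shared. H2 was the lowest high-fat library for 16 of 28 tested members, as it was for 46.7% of all tested genes, and its median deviation from the mean of 8 libraries was -0.28 over the members and -0.13 over all tested genes. N2 was the highest normal-diet library for 16 of 28 members and for 36.8% of all tested genes, with a median deviation of 0.19 over the members and 0.08 over all. H1 was the highest high-fat library for 13 members and H4 for 8, and H1 was so for 33.9% of all tested genes. The summed mast cell markers, at 7788, 1700, 4210 and 7175 FPKM in H1 to H4, were also lowest in H2 and highest in H1 and H4. In N1 to N4 they were at 3715, 6101, 7613 and 7925 FPKM, so N2 was not the highest. T cell markers (1594, 814, 1144 and 1438 FPKM in H1 to H4) and endothelial markers (144, 30.8, 97.4 and 116 FPKM) were likewise lowest in H2 and highest in H1 and H4. The ILC2 markers (8341, 7345, 7373 and 8020 FPKM) and the macrophage markers (10.2, 7.99, 9.04 and 9.89 FPKM) did the same. Adipocyte markers were instead highest in H2 (5.38, 8.30, 6.87 and 4.57 FPKM). B cell, NK cell and stromal markers were lowest in H3 or H4. Depth was lowest in H2 as well, and the part of depth and of RNA of other cell types in the levels was not tested. Without both H2 and N2 the median difference was 0.06 with 8 of 28 members below 0, and 0 members passed.

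**Figure D4:**
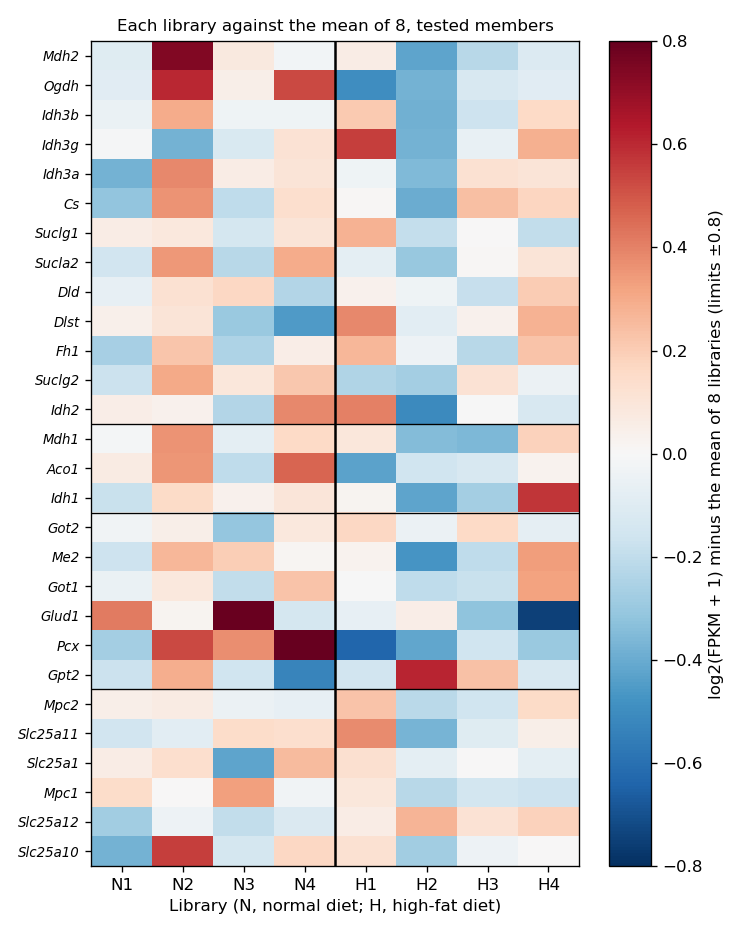
Each cell gives log2(FPKM + 1) of 1 tested member in 1 library minus its mean over 8 libraries, with red above and blue below, genes in rows by role and the 4 normal-diet libraries left of the black line. The N2 column is mostly red and the H2 column mostly blue, with medians of 0.19 and -0.28.

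Other genes of the same pathway were read from lists of 50 further enzymes, transporters and carriers, of which 42 were tested. In the H libraries 1 of them fell, 0 rose and 41 did not pass, with 29 differences below 0 and a median of -0.19. The 1 gene is 2.38% of those tested, beside 1.88% of all tested genes called lower, and 69.0% of the differences were below 0 beside 52.1% of all, whose median was -0.02. The gene that fell was Slc25a3, the carrier that brings phosphate and copper into mitochondria. It was at 1813, 1579, 1151 and 1568 FPKM in N1 to N4 and at 1096, 886, 906 and 989 FPKM in H1 to H4, so the diets did not overlap. Its difference was -0.64 (standard error 0.16, limma adjusted p = 0.0430). Leaving out any 1 library other than N3 ended the call (adjusted p of 0.0514 to 0.132), as did leaving out H2 with N2 (0.0800), dropping the filter (0.113) and quantile normalization (0.0621), with differences between -0.77 and -0.40 over 17 settings.

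Slc25a5, an ADP/ATP carrier and the next most expressed gene of the carrier list, was at 717 ± 152 and 491 ± 78.5 FPKM in N and H libraries without overlap (difference -0.54, limma adjusted p = 0.109). Slc25a51, the mitochondrial NAD carrier, chosen after its values were seen, was at 17.4 ± 2.44 and 11.5 ± 1.30 FPKM without overlap (difference -0.55, limma adjusted p = 0.0670). With Slc25a3, Slc25a5 and Pdk3, it made 4 of the 42 tested related genes (9.52%) without overlap, each lower in H libraries. Over all tested genes the share was 11.1%, with 6.76% lower. For succinate dehydrogenase, the enzyme shared by the cycle and the respiratory chain, Sdhb was at 199 ± 27.7 and 179 ± 30.1 FPKM and Sdha at 194 ± 35.2 and 147 ± 26.8 FPKM, with differences of -0.16 and -0.40. Of the glutamine transporters, Slc1a5 was at 249.9 ± 55.6 and 171 ± 22.3 FPKM (difference -0.53, limma adjusted p = 0.118) and Slc38a2 at 125 ± 22.0 and 138 ± 16.0 FPKM (difference 0.15). Neither transporter passed the test.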

How the data were processed

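RNA was sequenced in 8 libraries of sorted ILC2s, 4 per diet. Per the labels' protocols, RNA was taken up in Trizol, full-length cDNA was made with a SMART-Seq kit and libraries with a TruePrep kit, a transposase method that does not mark strand. Alignment and quantification tools, HISAT2 and Cufflinks, and the build mm10 are named in the submitters' processing notes. Tool versions and gene annotation were not given in the sources used here. FPKM is what the authors deposited, per the file headers. Of 39527 genes 14605 held values below 0 and were left out. A factor between 0.863 and 1.18 repeated every 10 rows in identifier order. It was kept in the main test and divided out in an alternative. Whole reads were recovered for 100% of 24107 genes above 0 (relative tolerance 1e-06), which gives too few reads where all 8 counts have a common factor. These reads set the counting precision.

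The 11483 genes that reached 1 FPKM in 4 or more of 8 libraries were tested on log2(FPKM + 1) with limma 3.58.1 in R 4.3.3, diet as the only term, eBayes trend and robust options, two-sided, Benjamini-Hochberg adjustment at 0.05. The code was checked on simulated libraries. Per-library values were given for members that passed, that did not overlap, the 5 with the smallest unadjusted p and the most expressed of each role, and Dlst and Suclg2 were added after their values were seen. Related genes were named where they passed or were among the 2 most expressed of their list. The 30 members, the lists and the tests were chosen with earlier results of these data known. Coordinates come from GENCODE M21 (mm10) and promoter sequences from RefSeq. Protein sequences were not used here.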

Additional observations from a re-analysis of the deposited data

Results flagged for a closer look

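Among 74 groups of 4 values (30 genes and 7 ratios in each diet), 3 held a value far from the other 3, judged by its gap to the nearest value as a share of the range. About 1 in 20 such groups is marked by chance. Idh3b in N2 was at 111 FPKM, against 87.1 to 88.2 FPKM in the other normal-diet libraries. Mdh2 in N2 was at 433 FPKM, against 242 to 273 FPKM. The log2 ratio of Suclg2 to Sucla2 in N3 was -0.86, against -1.26 to -1.21. With the repeating factor of the deposited values divided out, none of the 3 was as far from the others. Idh3b in N2 was then at 93.8 FPKM, within the 86.8 to 102 FPKM of the other normal-diet libraries. Mdh2 in N2 was at 365 FPKM against 248 to 296 FPKM, a gap of 0.593 of the range beside 0.839 as deposited. The Suclg2 to Sucla2 ratio in N3 was -0.90 against -1.39 to -1.05, a gap of 0.304 of the range.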

How the results depend on the processing

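Of 17 alternatives, 16 kept the count of members past the threshold at 0. The exception, voom on recovered reads at total library size, was chosen after seeing the data; it called 2 members (Dlst and Slc25a12), with a member median of 0.11, 5 members without overlap (17.9%, beside 19.4% of all tested genes), 4 related genes called (Slc25a3, Slc25a5 and Slc25a51 lower, Slc38a2 higher) and 1366 calls over all genes (9.96%). Calls over all genes, 328 in the main setting (112 higher, 216 lower), came to 130 with no filter, 571 with the repeating factor divided out, 723 with voom and 129 to 536 with a library left out. The split was 226 higher and 204 lower under quantile normalization, 242 and 216 without H2 and N2, 255 and 281 without H2, and 1010 and 356 at total reads.

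Related genes called were 0 with no filter and without H2 and N2, 2 under equal medians and with the factor divided out, 3 with voom (each lower) and 0 to 1 with a library left out. Members without overlap were 2 of 28 (7.14%) under quantile normalization, equal medians, the factor divided out, voom and without H2 and N2, beside 11.8%, 12.6%, 14.0%, 14.0% and 24.4% of all tested genes, and 1 to 3 with a library left out, beside 13.5% to 18.0%. Equal replicate numbers did not pair the libraries (correlations of -0.25 to 0.08, and not every library correlated best with its own number). The replicate block gave 191 calls over all genes, 0 members and 0 related genes (Slc25a3 adjusted p = 0.0558 by limma).

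The sign held in every alternative for 14 of 28 members and turned in at least 1 for the other 14, whose main differences were at most 0.16 in size. With the factor divided out and with voom, Cs was -0.040 and -0.038, and Slc25a11 0.010 and 0.015. Under quantile normalization Idh3a was 0.050, Idh3b 0.052, Suclg1 0.085, Got1 0.063, Slc25a1 0.053, Slc25a11 0.11 and the related Sdhb 0.014. At total reads Idh3a was 0.032, Idh3b 0.13, Sucla2 0.086, Suclg1 0.16, Idh1 0.15, Got1 0.14, Slc25a1 0.050 and Slc25a11 0.18. With a library, or H2 and N2, left out, differences ran from -0.092 to 0.27 for Cs, -0.27 to 0.032 for Idh2, -0.22 to 0.14 for Idh3a, -0.17 to 0.11 for Idh3b, -0.070 to 0.069 for Dld, -0.23 to 0.035 for Sucla2, -0.15 to 0.022 for Suclg1, -0.25 to 0.12 for Idh1, -0.30 to 0.035 for Me2, -0.14 to 0.055 for Got1, -0.16 to 0.070 for Slc25a1, -0.24 to 0.15 for Slc25a10, -0.15 to 0.10 for Slc25a11, -0.074 to 0.073 for Mpc2 and -0.23 to 0.048 for Sdhb. The causes were not tested. Depth limited Me1 (3 to 29 reads), Slc25a13 (22 to 52), Gpt2 (34 to 89) and Pcx (43 to 184).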
